A study of Rattus norvegicus with 78 samples.

Results

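The enzymes described here turn glucose into pyruvate and interconvert pyruvate and lactate. They are the products of 10 genes: Hk1, Pfkm, Pfkp, Aldoa, Aldoc, Pgk1, Eno1, Eno2, Ldha and Ldhb. Every probe set that the array's annotation gives to 1 of these symbols was taken, which gave 16 of the 15923 probe sets: 13 ordinary ones and 3 hexokinase control probe sets that the manufacturer placed along the Hk1 transcript. RNA from dorsal tissue of the left hippocampus of 78 male F344 rats was hybridised to Affymetrix RAE230A arrays, 1 for each animal, which report a signal per probe set. Ages were 4 to 6 months for young and 24 to 26 months for aged animals. Untrained rats stayed in the home cage, 10 young ones in NT-Y and 10 aged ones in NT-A. The other rats learned the Morris water maze, where a swimming animal learns the site of a hidden platform, and were taken on training day 5 or 21 days after training. Trained young rats formed 5T-Y (n = 10) and 21PT-Y (n = 9). Trained aged rats had been sorted by their maze scores relative to young rats, into unimpaired animals (5T-AU, n = 10, and 21PT-AU, n = 10) and impaired animals (5T-AI, n = 10, and 21PT-AI, n = 9). Untrained aged rats had no maze score, so NT-A could not be divided in this way.

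Glycolysis traps glucose in the cell as a sugar phosphate, splits it into smaller sugars and makes ATP in later steps. In brain, neurons and astrocytes carry different forms of several of its enzymes, and lactate made by astrocytes is thought to serve neurons as fuel, a supply studied in relation to memory. Aldoc is a common marker of astrocytes and Eno2, also called neuron-specific enolase, a common marker of neurons. Lactate dehydrogenase is a tetramer of A and B chains, of which the A chain favours lactate production and the B chain lactate use. Several of these genes, Ldha and Eno1 among them, are known in other mammals as targets of the hypoxia-inducible factor HIF-1, whose core sites read ACGTG or GCGTG.

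Promoter windows are shown for both lactate dehydrogenase genes, for both enolase genes and for Aldoc, since the comparisons below turn on these pairs and on genes that varied together. Each window holds 250 bases before and 50 bases after an annotated start in RefSeq (build GRCr8), written 5′ to 3′ on the strand of the gene. Capitals mark ACGTG, or CACGT for the same letters on the other strand. GCGTG, or CACGC on the other strand, was counted but not marked.
Ldha, chr1:106507842-106508141, plus strand: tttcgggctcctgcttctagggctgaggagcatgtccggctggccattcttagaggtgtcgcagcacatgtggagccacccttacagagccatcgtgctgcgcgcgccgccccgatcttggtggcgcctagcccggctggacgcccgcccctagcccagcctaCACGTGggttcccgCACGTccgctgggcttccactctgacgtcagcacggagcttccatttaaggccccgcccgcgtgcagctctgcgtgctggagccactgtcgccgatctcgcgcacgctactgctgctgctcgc
Ldhb, chr4:177177359-177177658, minus strand: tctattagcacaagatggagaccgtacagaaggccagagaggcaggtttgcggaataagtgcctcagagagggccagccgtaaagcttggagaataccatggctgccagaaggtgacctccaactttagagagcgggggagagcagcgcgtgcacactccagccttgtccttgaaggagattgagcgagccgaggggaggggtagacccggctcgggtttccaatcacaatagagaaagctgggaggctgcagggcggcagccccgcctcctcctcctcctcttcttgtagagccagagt
Eno1, the downstream start, chr5:166003111-166003410, plus strand: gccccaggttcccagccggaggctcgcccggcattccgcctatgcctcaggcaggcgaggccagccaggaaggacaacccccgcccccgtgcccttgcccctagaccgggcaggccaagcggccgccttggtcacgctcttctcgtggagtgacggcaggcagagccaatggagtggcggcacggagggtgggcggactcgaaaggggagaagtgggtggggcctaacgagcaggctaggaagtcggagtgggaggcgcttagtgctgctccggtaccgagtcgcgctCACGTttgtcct
Eno2, chr4:159267171-159267470, minus strand: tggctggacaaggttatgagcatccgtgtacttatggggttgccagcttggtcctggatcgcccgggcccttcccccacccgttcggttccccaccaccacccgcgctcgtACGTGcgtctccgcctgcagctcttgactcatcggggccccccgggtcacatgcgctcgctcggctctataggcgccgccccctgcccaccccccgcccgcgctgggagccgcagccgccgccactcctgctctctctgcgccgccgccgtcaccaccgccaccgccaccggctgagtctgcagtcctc
Aldoc, chr10:63715294-63715593, plus strand: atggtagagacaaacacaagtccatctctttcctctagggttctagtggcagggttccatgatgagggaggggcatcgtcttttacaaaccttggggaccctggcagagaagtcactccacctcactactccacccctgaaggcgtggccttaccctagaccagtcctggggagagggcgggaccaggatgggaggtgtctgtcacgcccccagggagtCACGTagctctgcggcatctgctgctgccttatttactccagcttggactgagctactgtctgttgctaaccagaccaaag
Of the 10 genes 9 had at least 1 such window, 13 windows in all, and Pgk1 had none in the table used. ACGTG was found in 7 of the 13 windows and in 19.3% of the 33469 windows of this length in the table. GCGTG was found in 6 of the 13, those of Aldoc, Eno1, Ldha, Ldhb and Pfkp, and in 29.7% of all windows. The GC content of the member windows ran from 50.3% to 70.7%, against a median of 51.7% over all windows. Ldha held the palindrome CACGTG, where matches of both strands overlap, with first bases 87 and 86 bases before the start, and another match 73 bases before it. Ldhb held GCGTG and no ACGTG. In Aldoc the ACGTG match began 31 bases before the start, in Eno2 139 bases before it, and in Eno1 39 bases after the start shown. The window at the upstream start of Eno1, not shown, held no ACGTG. A match is a description of these letters only.

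The median array signal ran from 228.4 to 267.8 intensity units. Precision is limited by how many arrays a group has. Neuronal markers (11 of 12 listed genes on the array), astrocyte markers (11 of 12) and hippocampal principal cell markers were all above the filter level. In this bulk tissue, fewer cells of a type and less RNA per cell cannot be told apart. The array of 5T-AI replicate 4 stood apart, with a mean correlation to the other arrays of 0.937 against a median of 0.968. Its summed microglial marker signal was 29541, against a group median of 8930.8, and its summed neuronal marker signal was 28134, against 40315. No group had more than 1 array on any of the 11 scan days, and each group had 3 or 4 arrays in each of 3 chip lots. Fluidics modules, 4 in all, split the arrays almost as the groups do (all 10 NT-Y arrays ran on module 1), so the 2 can barely be told apart. Summed microglial signal was higher in every aged group (group means 8691.9 to 10750) than in every young group (6043.9 to 6293.6), and its part in the comparisons by age below was not tested.

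No probe set of these genes passed the threshold in any comparison. Of the 16 probe sets 15 were bright enough to be tested, and the exception was the Pgk1 probe set 1368906_at, whose signal of 0.4 to 35.5 never reached the 40th percentile of its array. A probe set passed when limma's p, adjusted by Benjamini-Hochberg over the 10374 tested probe sets, was under 0.05. In aged against young rats 0 of 15 passed among untrained animals, where 0.781% of all tested probe sets did, 0 of 15 on day 5 (2.5%) and 0 of 15 on day 21 (2.84%). In impaired against unimpaired rats 0 of 15 passed on day 5 and on day 21, where the share over all probe sets was 0% in both. At an unadjusted limma p under 0.05 the counts were 1, 1 and 2 of 15 in the 3 comparisons by age, where 8.72%, 12.2% and 16.8% of all probe sets were under it, and 0 and 1 of 15 in impaired against unimpaired rats (4.58% and 4.6%). They were 2 in impaired against young rats on day 5 (12%), 5 in unimpaired against young rats on day 21 (15.9%), and 2 in unimpaired rats on day 5 against untrained aged rats (5.57%). They were 1 each in a pair of the tests of differing effects (3.72% and 4.64%), both from Eno2, and 0 elsewhere, where the shares ran from 2.44% to 12.1%. A count near or under these shares is no result about the members. The 5 in unimpaired against young rats on day 21 lay above their share. So did the 2 in unimpaired rats on day 5 against untrained aged rats. The smallest limma adjusted p there were 0.155, from the middle Hk1 control, and 0.728, from Pgk1. The 5 on day 21 were the 3 Hk1 controls, the weaker Pfkm probe set 1386961_at and Eno2. Eno2 was lower in the unimpaired rats and the others were higher. Since the 3 controls measure 1 transcript, the count is not one of 5 separate genes. The Hk1 controls and this Pfkm probe set are taken up below with a measure of RNA quality, with which they varied. In no comparison did the ranges of the groups fail to overlap for a member, which happened for 0.289%, 0.299% and 0.222% of probe sets by age and for 0% to 0.53% in the other comparisons. The median lead difference by age was log2 0.01, 0.03 and 0.01, against 0.00, -0.01 and -0.01 over all tested probe sets.

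The other comparisons gave 0 of 15 as well. These were unimpaired against young rats on day 5 (1.37% of all probe sets passing) and on day 21 (1.49%), and impaired against young rats on day 5 (2.02%) and on day 21 (1.75%). They also included day 5 against untrained rats in young (0.0675%), unimpaired (0.0289%) and impaired animals (0.0868%), where both aged groups were set against NT-A. Day 21 against untrained rats gave 0% over all probe sets in young and in aged animals, and day 21 against day 5 gave 0.0964% in young, 0% in unimpaired and 0.00964% in impaired rats. An F test over the 8 groups passed for 4.11% of probe sets and for 0 of 15 here. Tests of whether an effect differed between times or between kinds of rat, 6 in all, passed for no probe set of the array. Comparisons that share a group are not independent of each other.

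The brightest ordinary probe set of each gene is its lead probe set below. All 10 lead probe sets were above the 40th percentile of the array in each of the 78 arrays. Their residual SD within groups was small, with a median of 0.118 on the log2 scale (0.0901 to 0.173), against a median of 0.184 over all tested probe sets. Over 17 comparisons and 10 genes, 170 values in all, the lead differences lay between log2 -0.119 and 0.174, and 168 of them were under 10% in size. The 95% intervals of the fit spanned 0 in 162 of the 170. The widest bounds over all of them were -15.1% and 25.2%, so larger changes than these lay outside the interval of every lead probe set. Between the lowest and the highest of the 8 group means a lead probe set differed by log2 0.101 to 0.188. Neighbours in the order of group means differed by less than the residual SD in 70 of 70 cases. The whole span of the means was itself near that SD of single arrays, so this count is no evidence about the groups.

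**Figure D1:**
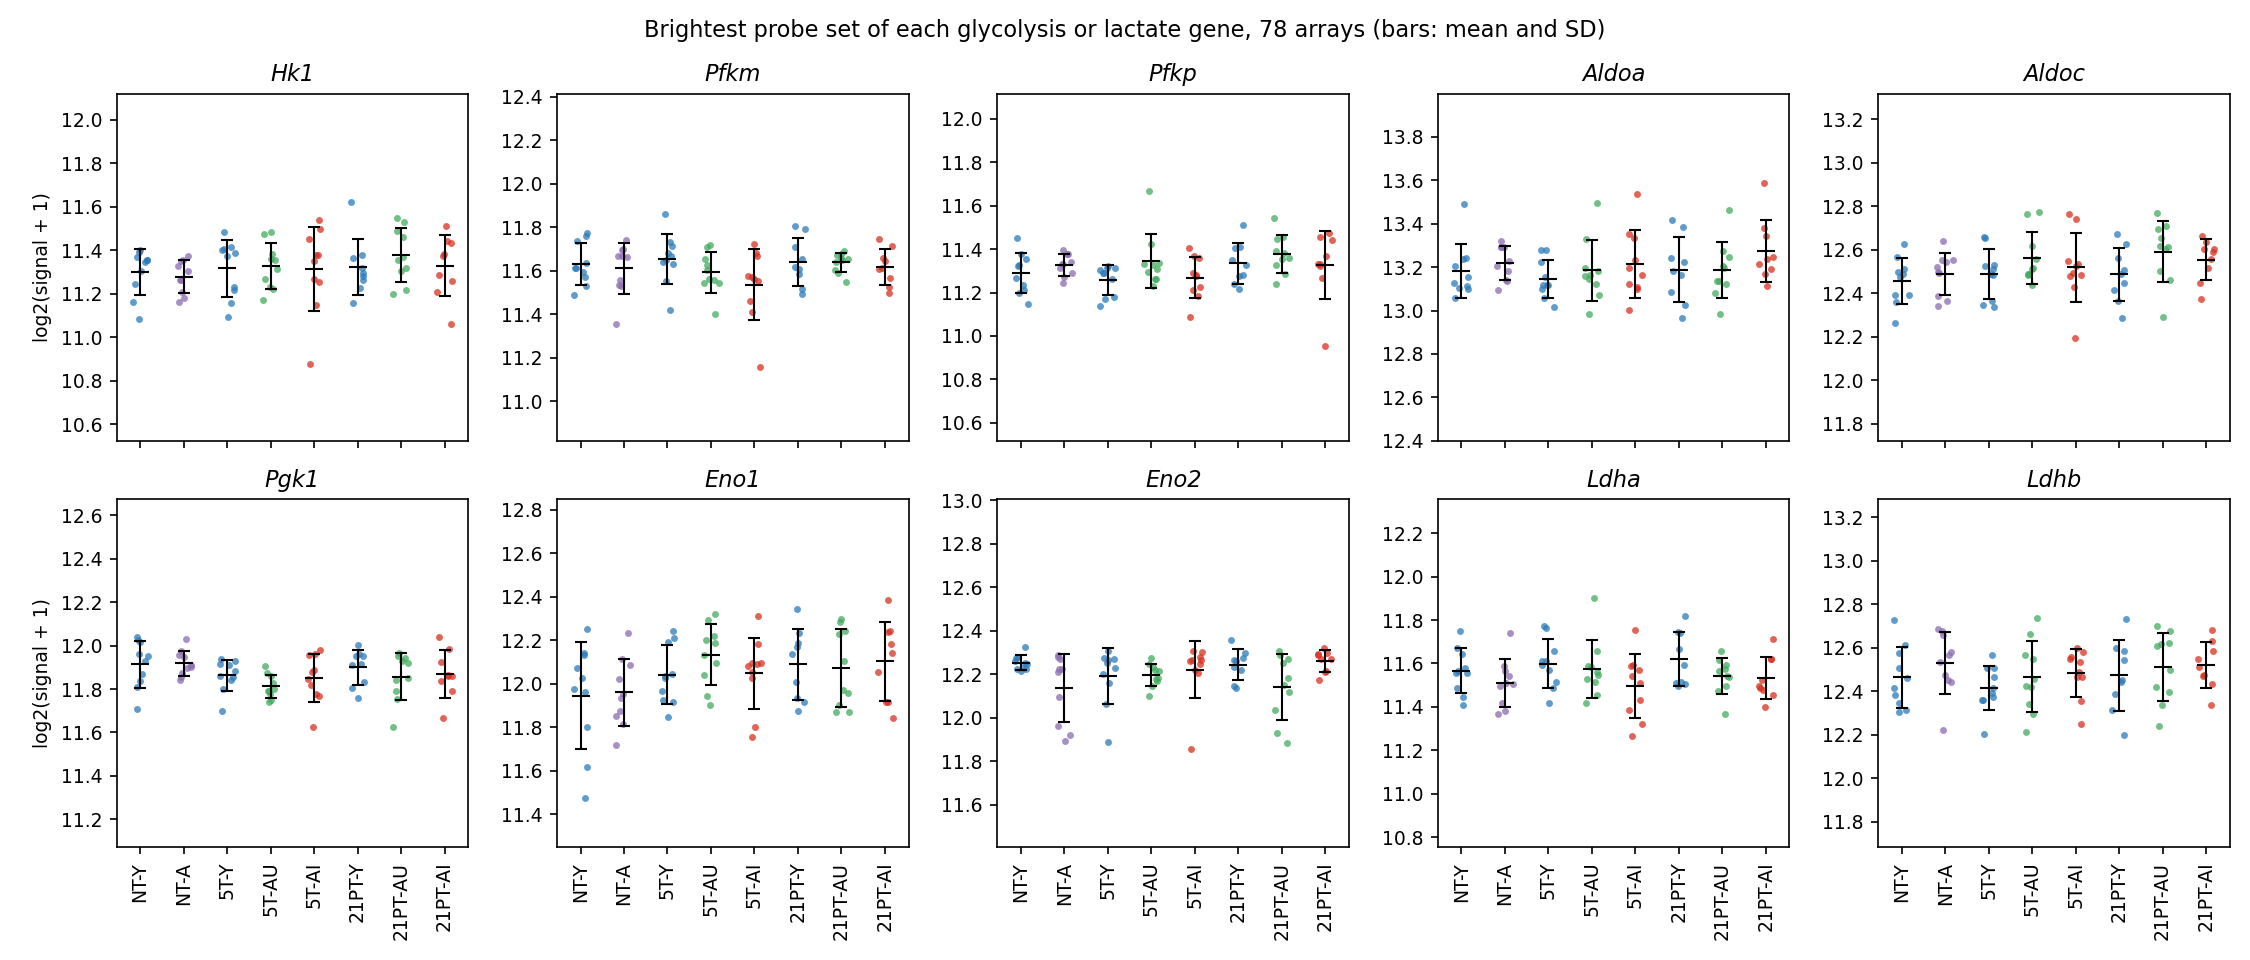
Each panel plots log2(signal + 1) of the lead probe set of 1 gene by group, with 1 point per array and the mean and SD of each group as bars. The groups overlap in every panel, and the vertical axes all cover the same log2 span.

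Hk1 encodes hexokinase 1, which phosphorylates glucose on entry and is the main hexokinase of brain. Its ordinary probe set 1386929_at had a signal from 1881.6 to 3151.5. The lowest group mean was 2488 ± 131 (SD, n = 10) in NT-A and the highest 2673 ± 229 (SD, n = 10) in 21PT-AU. The differences between aged and young rats were log2 -0.02 ± 0.06 (SE) without training, 0.00 ± 0.05 on day 5 and 0.03 ± 0.05 on day 21. No group stood apart.

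Pfkm and Pfkp encode the muscle and platelet forms of phosphofructokinase, the committing and most regulated step of the pathway. The lead probe set of Pfkm (1367864_at) had a signal in 5T-Y from 2741.3 to 3722.2 with a median of 3233.15. In 5T-AU it ran from 2705.8 to 3370.6 with a median of 3069.3, and in 5T-AI from 2283 to 3382 with a median of 3031.05. The aged day 5 groups had the lower medians, and all 3 ranges overlapped. Pfkm differed by log2 -0.09 ± 0.04 (SE) between aged and young rats on day 5 (limma adjusted p = 0.341) and by -0.12 ± 0.05 in impaired rats alone (adjusted p = 0.255). Without 5T-AI replicate 4 the difference of impaired from young rats was -0.08 (limma adjusted p = 0.701). On the other days the Pfkm differences by age were log2 -0.02 ± 0.05 without training and -0.01 ± 0.04 on day 21. Pfkp (1372182_at) had a signal from 1985.4 to 3251.5, and its 3 differences by age were log2 0.04 ± 0.05, 0.05 ± 0.04 and 0.02 ± 0.04.

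Aldoa and Aldoc encode the ubiquitous and the brain form of aldolase, which cleaves the doubly phosphorylated sugar. Aldoa (1367617_at) had a signal from 8004.4 to 12282.4. Its group means lay between 9079 ± 561 (SD, n = 10) in 5T-Y and 9954 ± 1040 (SD, n = 9) in 21PT-AI. Its differences by age were log2 0.04 ± 0.06 (SE), 0.05 ± 0.05 and 0.04 ± 0.05. Aldoc (1386998_at), the astrocyte form, ran in 21PT-Y from 4996.6 to 6526.9 with a median of 5756.5. In 21PT-AU it ran from 5004.7 to 6978.4 with a median of 6276.7, and in 21PT-AI from 5302.5 to 6495.5 with a median of 6160.6. The aged medians were higher and the ranges overlapped throughout. Aldoc differed by log2 0.09 ± 0.05 (SE) on day 21 (limma adjusted p = 0.368), by 0.05 ± 0.05 on day 5 and by 0.03 ± 0.05 without training.

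Of the astrocyte markers, Gfap passed the threshold in all 3 comparisons by age, at log2 0.25 without training, 0.28 on day 5 and 0.25 on day 21 (limma adjusted p = 0.00509, 2.46e-05 and 5.50e-04). The median summed signal of all astrocyte markers was 33174 to 33621 in the young groups and 35965 to 37433 in the aged ones. Whether Gfap changed by more than Aldoc was not tested. Over the 78 arrays, with group means taken off, Aldoc and the mean of the astrocyte markers had a Pearson r of 0.11 (permutation test, adjusted p = 0.479 over 67 relations) and a Spearman rho of 0.09 (adjusted p = 0.601). Without the 2 arrays farthest from the median, r was 0.09. Within the chip lots r was 0.26, -0.03 and 0.27.

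Pgk1 encodes phosphoglycerate kinase 1, which makes the first ATP of the pathway. Its lead probe set (1388318_at) had a signal from 3153.6 to 4202.5 and the smallest residual SD among the lead probe sets. In NT-A it ran from 3664.1 to 4178.3 with a median of 3835.05, and in 5T-AU from 3423.7 to 3841.5 with a median of 3554.6. The trained group lay lower with some overlap. The difference was log2 -0.11 ± 0.04 (SE), and it did not pass (limma adjusted p = 0.728). The second tested Pgk1 probe set, 1387361_s_at, had closer medians, 3066.8 in NT-A and 3052 in 5T-AU. The differences of the lead Pgk1 probe set by age were log2 0.00 ± 0.04, -0.03 ± 0.04 and -0.04 ± 0.04.

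Eno1 and Eno2 encode the alpha and gamma forms of enolase, which makes phosphoenolpyruvate. Eno1 (1367575_at) varied most among the lead probe sets, with a signal from 2848 to 5352.4. In NT-A it ran from 3371.6 to 4809.3 with a median of 3934.95, and in 5T-AU from 3824.6 to 5119.5 with a median of 4577.35. The unimpaired trained rats lay higher and overlapped with the untrained ones. The difference was log2 0.17 ± 0.08 (SE), or 12.8% with a 95% interval of 1.61% to 25.2%, and it did not pass (limma adjusted p = 0.832). The Eno1 differences by age were log2 0.01 ± 0.08, 0.05 ± 0.07 and 0.00 ± 0.07.

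Eno2 (1370341_at), the neuronal enolase, had in NT-Y a narrow range from 4758.5 to 5137.2 with a median of 4868.35. In NT-A it ran from 3803.6 to 5001.1 with a median of 4756.35. Some aged untrained arrays were far lower than any young one while others lay among them, and the SD on the log2 scale was 0.157 in NT-A and 0.0337 in NT-Y. The difference was log2 -0.12 ± 0.05 (SE), and it did not pass (limma adjusted p = 0.388). Within the chip lots it was -0.06, -0.09 and -0.18. On day 5 the difference of Eno2 by age was 0.02 ± 0.04, and on day 21 it was -0.04 ± 0.04.

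Between impaired and unimpaired rats Eno2 alone had an unadjusted limma p under 0.05. On day 21 it ran from 3776 to 5057.9 with a median of 4599.05 in 21PT-AU. In 21PT-AI it ran from 4619.8 to 5109.8 with a median of 4940.7. Impaired rats lay in a narrow band that overlapped with the upper range of the unimpaired ones. The difference was log2 0.12 ± 0.05 (SE) with an unadjusted limma p of 0.0206 and an adjusted p of 0.986, and within the chip lots it was 0.18, -0.02 and 0.19. The same difference of Eno2 on day 5 was 0.02 ± 0.05. Across arrays, with group means taken off, Eno2 and the mean of the neuronal markers had r = 0.27 (permutation test, adjusted p = 0.123) and rho = 0.07 (adjusted p = 0.687). Without the 2 farthest arrays r was 0.08, and within the chip lots it was 0.16, 0.50 and 0.23.

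Ldha and Ldhb encode the A and B chains of lactate dehydrogenase. Ldha (1367586_at) had medians of 3021.15 in NT-Y and 2911 in NT-A, of 3108.6 in 5T-Y against 3005.6 in 5T-AU and 2948.65 in 5T-AI, and of 3092.4 in 21PT-Y against 3004.6 in 21PT-AU and 2888.1 in 21PT-AI. Each aged group had the lower median at its time, and all ranges overlapped, the whole span being 2462.8 to 3821.1. The differences of Ldha by age were log2 -0.06 ± 0.05 (SE), -0.06 ± 0.04 and -0.08 ± 0.05, with limma adjusted p of 0.860, 0.648 and 0.364. They were negative in each chip lot at each time, from -0.01 to -0.17.

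Ldhb (1370218_at) had medians of 5554.9 in NT-Y and 6006.5 in NT-A, of 5424.55 in 5T-Y against 5560.7 in 5T-AU and 5839.4 in 5T-AI, and of 5607.2 in 21PT-Y against 6019.05 in 21PT-AU and 5834.6 in 21PT-AI. Each aged group had the higher median, and all ranges overlapped between 4707.1 and 6819.5. The differences of Ldhb by age were log2 0.07 ± 0.06 (SE), 0.06 ± 0.05 and 0.04 ± 0.05, with limma adjusted p of 0.858, 0.741 and 0.757. They were negative in 1 of the 3 chip lots at each time.

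**Figure D2:**
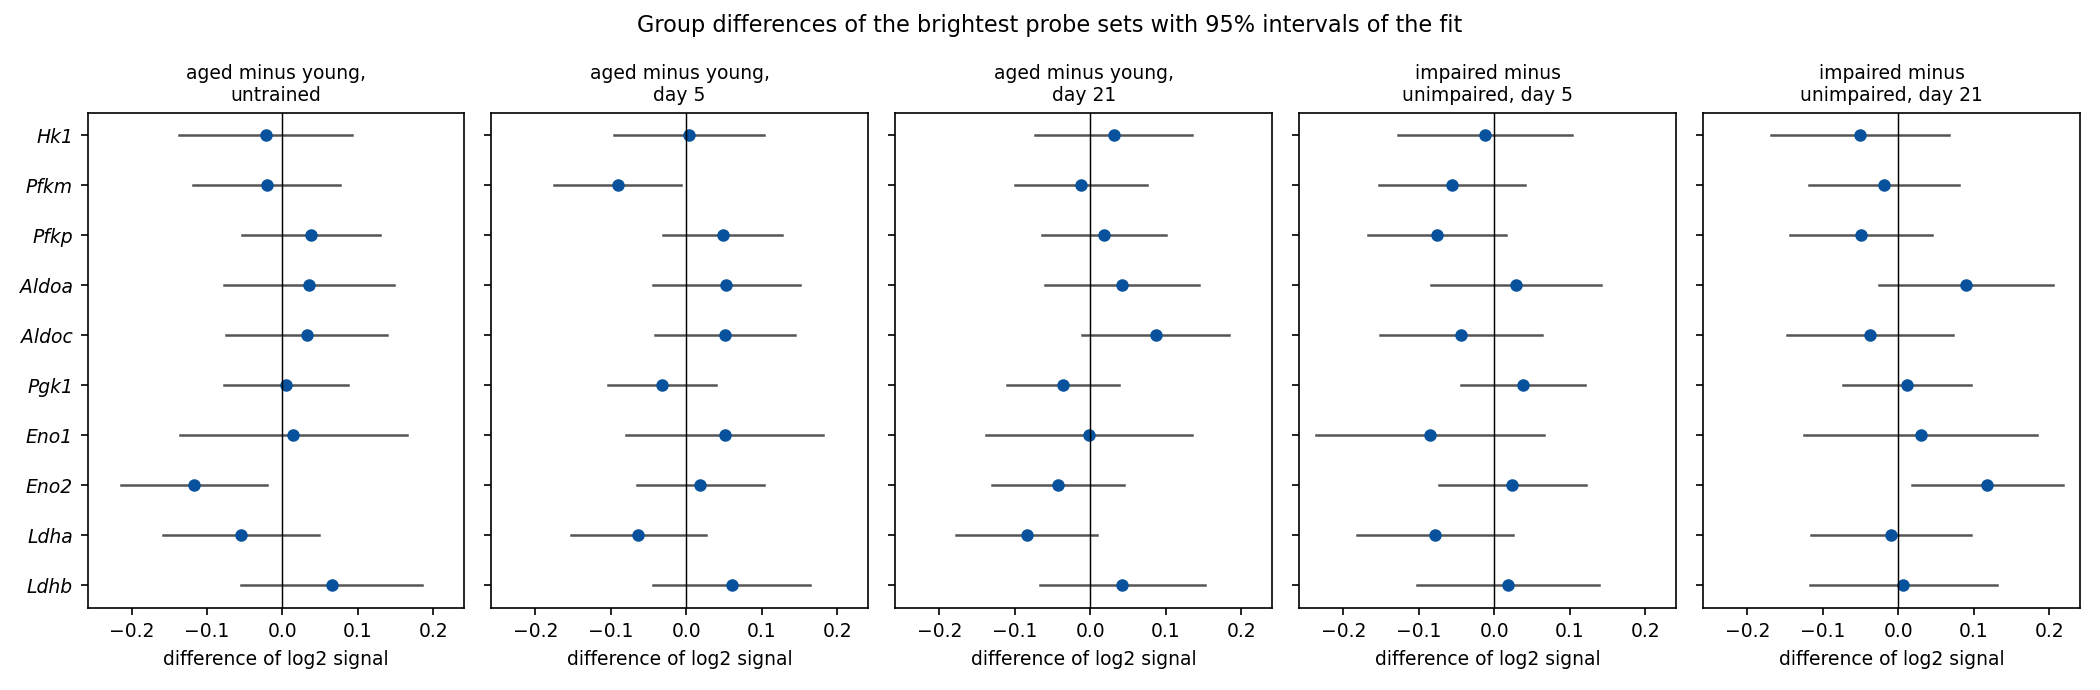
Points are differences of log2 signal of each lead probe set in 5 comparisons and lines are the 95% intervals of the fit. Most intervals span 0, and those that do not are Eno2 in untrained rats, Pfkm on day 5 and Eno2 between impaired and unimpaired rats on day 21.

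The opposite signs of the lactate dehydrogenase genes led to a look at Ldha minus Ldhb within each array. This quantity was chosen after the values were seen and carries no test, and its level between probe sets has no meaning of its own, only its difference between groups. The mean of Ldha minus Ldhb was -0.90 ± 0.17 (SD, n = 10) in NT-Y and -1.02 ± 0.18 (SD, n = 10) in NT-A. On day 5 it was -0.82 ± 0.17 (SD, n = 10) in 5T-Y, -0.89 ± 0.19 (n = 10) in 5T-AU and -0.99 ± 0.17 (n = 10) in 5T-AI. On day 21 it was -0.85 ± 0.21 (SD, n = 9) in 21PT-Y, -0.97 ± 0.19 (n = 10) in 21PT-AU and -0.99 ± 0.14 (n = 9) in 21PT-AI. Aged minus young was log2 -0.12, -0.12 and -0.13 at the 3 times. Its sign at each time was fixed by the choice, since Ldha was lower and Ldhb higher with age at each time. Within the chip lots it was negative throughout, from -0.02 to -0.23. These lots and the counts that follow come from the arrays that led to the choice and give it no separate support. Of the aged arrays 8 of 10, 15 of 20 and 15 of 19 lay below the young mean, and the ranges overlapped at each time. Impaired minus unimpaired was -0.10 on day 5 and -0.02 on day 21, and on day 21 it changed sign between the chip lots.

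**Figure D3:**
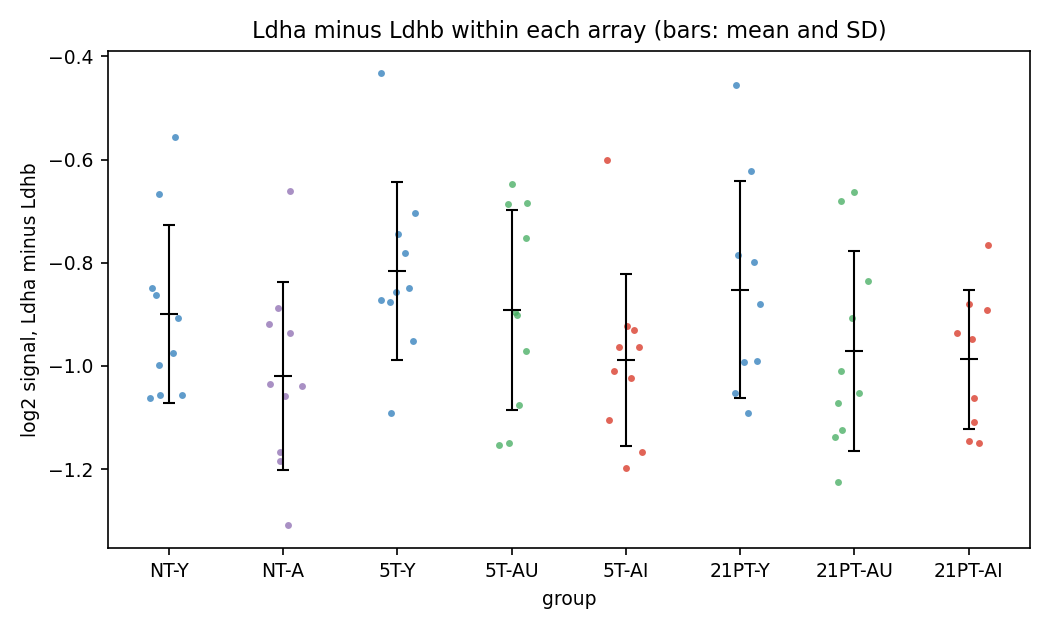
Log2 signal of Ldha minus that of Ldhb is plotted for each array by group, with mean and SD as bars. The aged groups average from -1.02 to -0.89 and the young groups from -0.90 to -0.82, with wide overlap.

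The other pairs gave smaller or less even differences by age. For Aldoa minus Aldoc these were log2 0.00, 0.00 and -0.05, and for Eno1 minus Eno2 they were 0.13, 0.03 and 0.04. For Pfkm minus Pfkp they were -0.06, -0.14 and -0.03. On day 5 Pfkm minus Pfkp was below the young mean in 19 of 20 aged arrays, and in the chip lots the difference was -0.09, -0.02 and -0.27.

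The probe sets of Hk1 differed from each other in spread. The 3 hexokinase control probe sets had residual SDs of 0.369 (3′ end), 0.799 (middle) and 0.746 (5′ end), against 0.129 for the ordinary Hk1 probe set. The middle control ran in 21PT-Y from 187.4 to 977.3 with a median of 296.9, and in 21PT-AU from 327.7 to 1239.4 with a median of 725.35. The 5′ control ran from 57.3 to 275.4 with a median of 88.6 in 21PT-Y, and from 82.1 to 286.3 with a median of 200.55 in 21PT-AU. Unimpaired aged rats had the higher medians and the ranges overlapped. The differences were log2 0.94 ± 0.35 (SE) and 0.78 ± 0.33, neither of which passed (limma adjusted p = 0.155 and 0.221), while the ordinary Hk1 probe set differed by 0.06 ± 0.06. With scan day as a block these became 0.90 and 0.73, and both passed (limma adjusted p = 0.0373 and 0.0358).

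The beta-actin control ratio of 3′ over 5′ signal, a measure of how complete the labelled RNA is, moved with these probe sets. Its group mean was lowest in 21PT-AU, at log2 0.595 ± 0.227 (SD, n = 10), and highest in 21PT-Y, at 0.988 ± 0.377 (SD, n = 9). Over the 78 arrays, with group means taken off, the Pearson r with the actin ratio was -0.78 for the 5′ control (rho -0.78), -0.77 for the middle control (rho -0.78) and -0.60 for the 3′ control (rho -0.57). Each had a permutation adjusted p of 1.34e-04 over 67 relations, from the smallest p that 100000 permutations can give (1e-05). For the ordinary Hk1 probe set r was -0.05 (permutation adjusted p = 0.806). Without the 2 farthest arrays the 3 control values were -0.77, -0.74 and -0.54, and within the chip lots the 5′ value was -0.86, -0.69 and -0.47. With the actin ratio as a covariate, the differences of 21PT-AU from 21PT-Y were log2 -0.08 for the 5′, 0.02 for the middle and 0.04 for the 3′ control of Hk1 (limma adjusted p = 0.980, 0.994 and 0.986). Without 21PT-Y replicate 6 the 5′ and middle differences of Hk1 were 0.72 and 0.82 (limma adjusted p = 0.386 and 0.340).

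**Figure D4:**
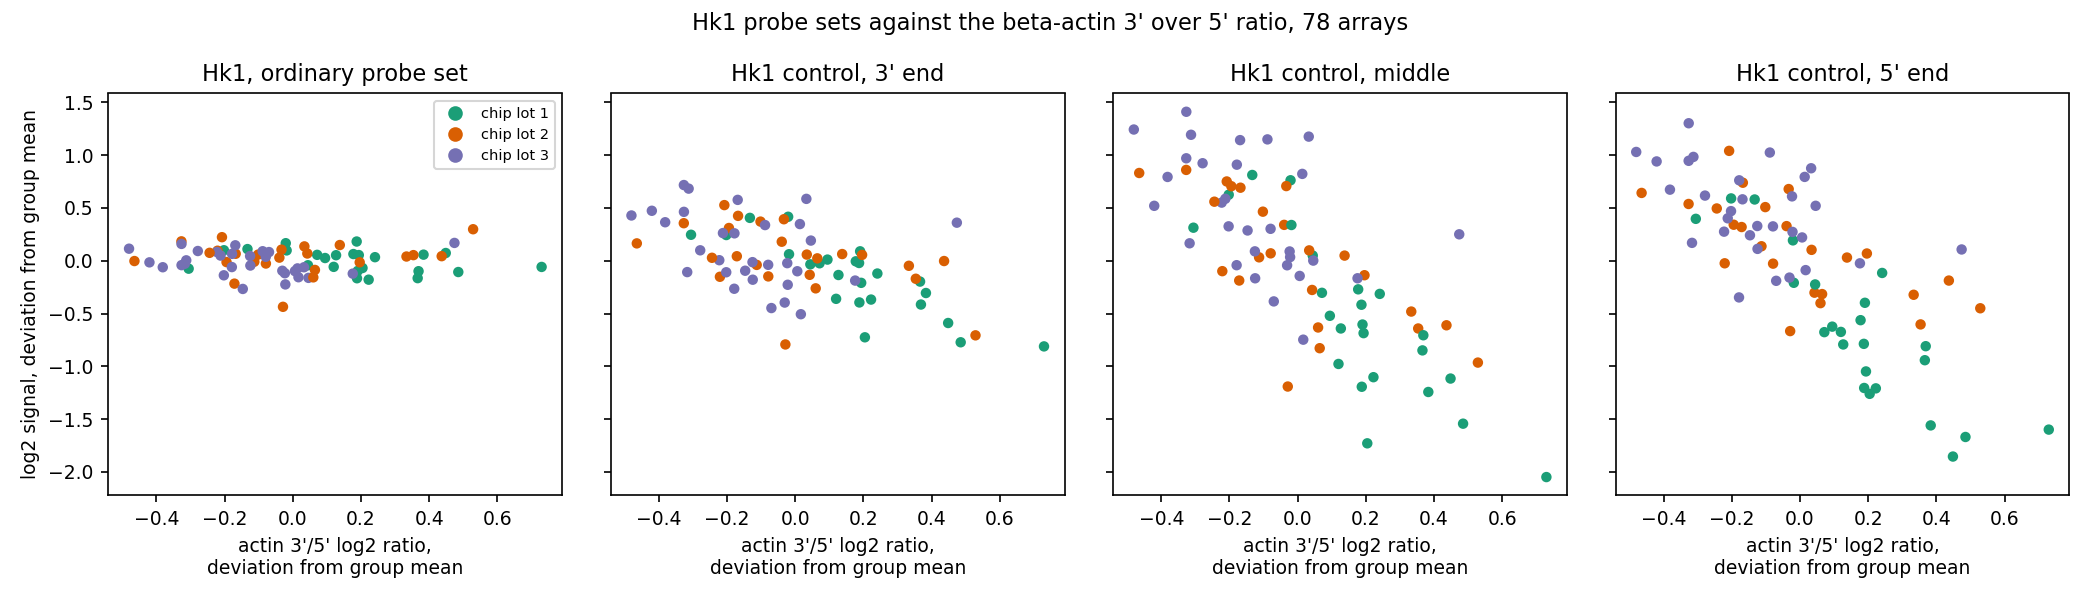
The log2 signal of 4 Hk1 probe sets is plotted against the log2 beta-actin 3′ over 5′ ratio, both as deviations from the group mean, with 1 point per array coloured by chip lot. The 5′ and middle controls fall with the ratio (r = -0.78 and -0.77), and the ordinary probe set does not (r = -0.05).

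Among ordinary probe sets, the actin ratio also went with the second Pfkm probe set 1386961_at (r = -0.51, rho = -0.44, permutation adjusted p = 2.51e-04 and 0.0011), with Ldhb (r = 0.49, rho = 0.46, adjusted p = 2.98e-04 and 6.70e-04) and with Pfkp (r = 0.43, rho = 0.44, adjusted p = 9.75e-04 and 6.70e-04). Without the 2 farthest arrays these values of r were -0.41, 0.48 and 0.41, and the sign was the same in each chip lot. After scan day was taken off, r fell in size to -0.41 for the second Pfkm probe set and to 0.27 for Ldhb and for Pfkp. The lead Pfkm probe set had r = 0.25 and rho = 0.32 with the actin ratio, of which only rho passed (permutation adjusted p = 0.0692 and 0.0289). Within the chip lots its r was -0.11, 0.38 and 0.08. The second Pfkm probe set correlated with the lead one at r = 0.31 (rho = 0.29, permutation adjusted p = 0.035 and 0.047). The second Pgk1 probe set, 1387361_s_at, correlated with its lead at r = 0.34 (rho = 0.41, permutation adjusted p = 0.0214 and 0.00207).

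More of these probe sets differed between scan days than between study groups. With group in the fit, 49.5% of tested probe sets differed between scan days and 43.3% between chip lots. For fluidics modules it was 0%, but modules split the arrays almost as the groups do. A module difference could thus hardly show in this fit, and the 0% is not comparable with the other shares. Ldha, Ldhb, Aldoa, Aldoc and the lead probe set of Pgk1 were among those that differed by scan day (limma adjusted p = 0.00153, 8.94e-04, 1.19e-04, 7.77e-05 and 0.0443), as did the 3 Hk1 controls. That is 8 of 15, near the share over all probe sets. Lot 2 lay lowest for Aldoa, at log2 -0.10 from the group means, against 0.08 in lot 1 and 0.01 in lot 3. For Aldoc lot 2 lay at -0.10, against 0.04 and 0.05, and for Ldha at -0.08, against 0.03 and 0.04. Ldhb differed from these, with 0.10 in lot 1 and -0.05 and -0.04 in lots 2 and 3. Eno2 varied little, from -0.01 to 0.01. Since each scan day held at most 1 array of a group, the groups share the scan days.

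**Figure D5:**
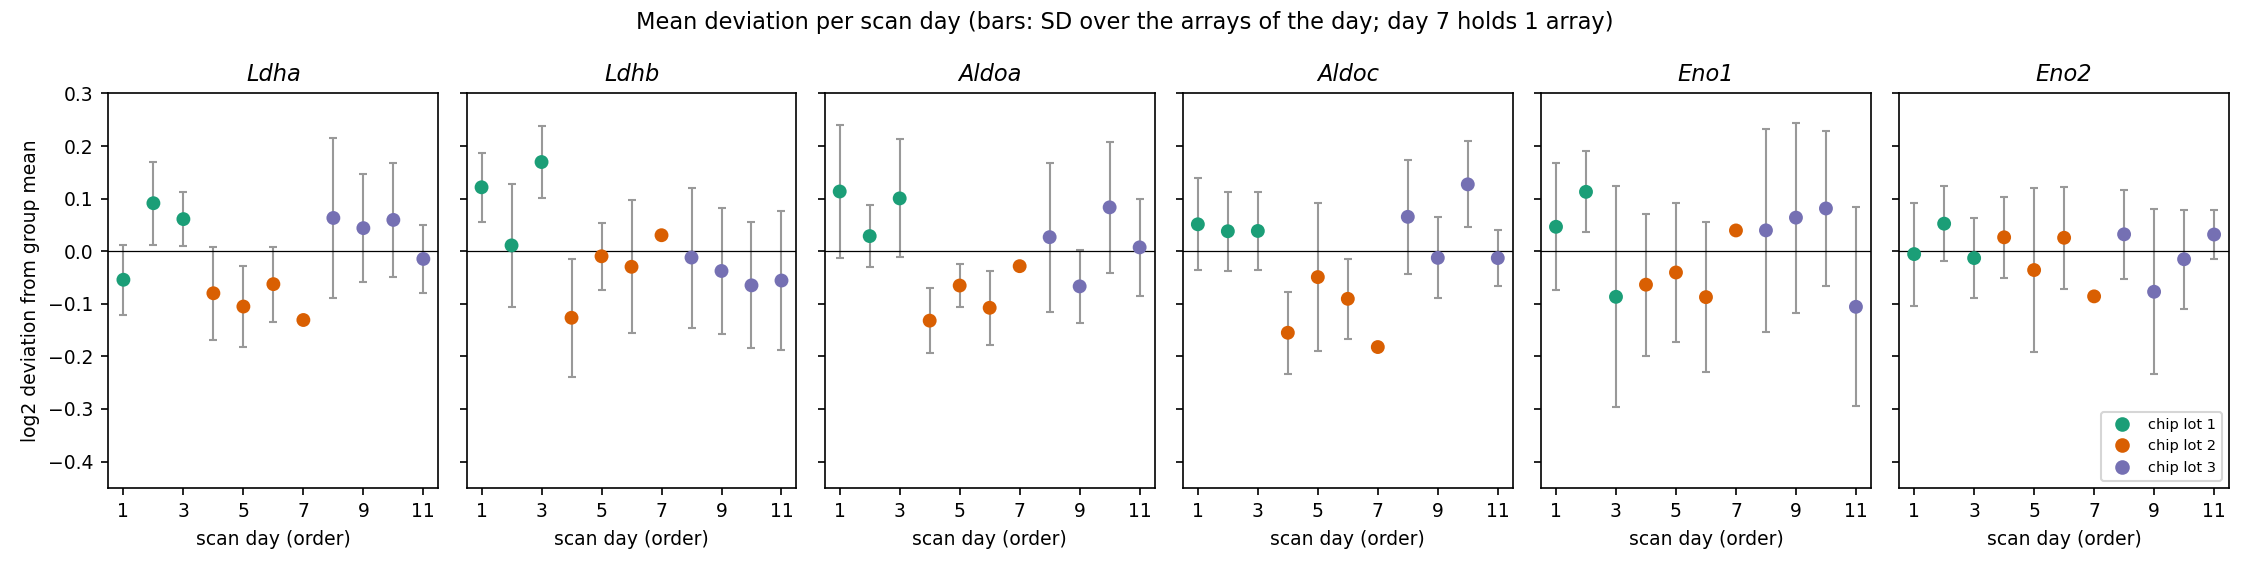
Points are the mean deviation of log2 signal from the group means on each of 11 scan days, coloured by chip lot, with the SD over the arrays of the day as bars. Aldoa, Aldoc and Ldha are below 0 on all 4 days of lot 2, and Eno2 lies between -0.09 and 0.05.

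Correlations between the enzymes from rat to rat were uneven. With group means taken off, 32 of 45 pairs of lead probe sets had r above 0 over the 78 arrays, with a median of 0.13. Of these pairs 10 passed a permutation adjusted p under 0.05 for r, and in all 10 r was positive. The same shares over pairs of all tested probe sets were not computed, so these counts are no result about the enzymes. The permutations did not keep arrays within their scan day, so these p-values also take in shifts shared by a scan day. The highest were Aldoc with Eno1 (r = 0.56, rho = 0.58), Aldoa with Ldha (r = 0.53, rho = 0.51), Aldoa with Aldoc (r = 0.51, rho = 0.46) and Eno1 with Pfkm (r = 0.50, rho = 0.50), with permutation adjusted p from 1.34e-04 to 6.70e-04. Without the 2 farthest arrays r was 0.53, 0.51, 0.44 and 0.50. After scan day was taken off, r was 0.59 for Aldoc with Eno1, 0.53 for Aldoa with Ldha and 0.47 for Eno1 with Pfkm, but 0.20 for Aldoa with Aldoc. Of the other passing pairs, Aldoc with Ldha went from 0.43 to 0.21, Aldoa with Ldhb from 0.38 to 0.14 and Ldhb with Pgk1 from 0.29 to 0.27. Aldoc with Pfkm stayed at 0.32, Eno1 with Hk1 went from 0.30 to 0.35 and Hk1 with Pfkm from 0.39 to 0.45. Without the 2 farthest arrays these pairs, in the same order, had r of 0.35, 0.39, 0.28, 0.21, 0.32 and 0.24. In the chip lots Aldoa with Ldha gave 0.05, 0.25 and 0.59, and Aldoc with Eno1 gave 0.33, 0.68 and 0.58. Only 16 of the 45 pairs had 1 sign in all 3 lots. The forms of 1 enzyme differed in this. Aldoa with Aldoc is given above. For Ldha with Ldhb r was 0.00 and rho 0.00 (permutation adjusted p = 0.981 and 0.992), and for Eno1 with Eno2 r was -0.03 and rho -0.06 (adjusted p = 0.835 and 0.791). For Pfkm with Pfkp r was 0.25 and rho 0.29, of which only rho passed (permutation adjusted p = 0.0692 and 0.043).

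The probe sets most like each lead probe set over the 78 arrays, again with group means taken off, are given as a description. Aldoc was closest to Prdx2 (r = 0.77), a peroxiredoxin, then to Atp1b1 (0.71), a subunit of the sodium pump, and to S100b (0.70), a calcium-binding protein of astrocytes. Eno1 was closest to Oaz1 (0.72) and to the second Pfkm probe set (0.70). Ldha was closest to Pja2 (0.70), Syp (0.66), a protein of synaptic vesicles, and Cox5b (0.64), a subunit of cytochrome oxidase. Aldoa was closest to Cox8a (0.72), another subunit of that oxidase, Pebp1 (0.70) and Atp6v0c (0.69). Hk1 was closest to Pcsk1n (0.70), Fkbp8 (0.70) and Rundc3a (0.70). For Pfkm, Ldhb, Eno2, Pfkp and Pgk1 the closest values of r were 0.65, 0.62, 0.60, 0.55 and 0.63. These arrays share scan days, and after scan day was taken off r was 0.39 for Ldha with Cox5b. For Aldoc it was 0.65 with Prdx2, 0.49 with Atp1b1 and 0.51 with S100b. S100b is on the astrocyte marker list, whose mean had r = 0.11 with Aldoc.

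Maze scores had been used to form the aged groups, so their relation to the enzymes was examined within each of the 6 trained groups. With the average time to the platform, 3 of 60 relations had an unadjusted permutation p under 0.05 for r and 0 passed after adjustment over the 60. The smallest permutation adjusted p was 0.0942 for r, from Ldha in 5T-AU. In that group Ldha was highest, at 3821.1, in the rat with the shortest time, 11.45 s, and next highest, at 3232.7, in the rat with the next shortest, 12.17 s. The other 8 rats took 16.09 s to 18.9 s and lay between 2735 and 3074.1. Across the 10 rats r was -0.85 (unadjusted permutation p = 0.00157) and rho was -0.71 (p = 0.0264, adjusted p = 0.397). Without those 2 rats r was -0.45, so the size of r depended on them. Leaving them out also narrowed the times to 16.09 s to 18.9 s.

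With path length in place of time the same relation of Ldha in 5T-AU had r = -0.89 (permutation adjusted p = 0.03) and rho = -0.83 (adjusted p = 0.147), and r was -0.59 without the 2 farthest rats. It was the only one of 60 that passed over all rats. Without the 2 rats farthest from the median path length another one passed, Aldoc in 21PT-AI (r = 0.96, permutation adjusted p = 0.0476), where r over all 9 rats was 0.22 and rho 0.45 (permutation adjusted p = 0.928 and 0.783). In 5T-Y Ldha had r = -0.50 with time and -0.65 with path length (permutation adjusted p = 0.942 and 0.495), and r without the 2 farthest rats was -0.84 and -0.81 (adjusted p = 0.159 and 0.228). Pgk1 in 5T-Y had r = 0.67 and 0.72 (permutation adjusted p = 0.779 and 0.281), rho = 0.89 with both (adjusted p = 0.0552 and 0.0678), and r = 0.90 and 0.79 without the 2 farthest rats (adjusted p = 0.0878 and 0.228). None of these values for 5T-Y passed. A chip lot held 3 or 4 rats of a group and a scan day at most 1, too few for a value within them.

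Of the wider pathway, 7 lists of genes were read beside the members, with 68 tested probe sets in all. The remaining glycolytic enzymes were measured by 5 probe sets, Tpi1, Pfkl, Gpi, Pgam1 and Bpgm, of which 0 passed in any comparison. Their differences by age without training were log2 0.10 ± 0.05 (SE), 0.06 ± 0.09, 0.01 ± 0.05, 0.00 ± 0.05 and -0.08 ± 0.06. The array's annotation gives the ordinary probe sets of Gapdh and Pkm several symbols, so these are not named here. In the lists of glycolysis regulators (5 probe sets), of pyruvate entry to mitochondria (15), of glycogen (14) and of the pentose phosphate pathway (7), 0 passed in any comparison. The medians of these lists by age on day 21 were log2 -0.04, 0.02, 0.05 and 0.04, against -0.01 over all tested probe sets.

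Among glucose and lactate transporters 1 of 9 probe sets passed. Slc2a1, whose product carries glucose across the blood-brain barrier, rose by log2 0.29 ± 0.07 (SE) in aged against young rats on day 21 (limma adjusted p = 0.00829), and by 0.36 ± 0.08 in impaired against young rats (adjusted p = 0.00576). With fluidics module in the fit the second of these was 0.37 (limma adjusted p = 0.0628). Its differences by age were 0.12 ± 0.07 on day 5 and -0.01 ± 0.08 without training, and the test of a difference between times passed for no probe set. On day 21 the endothelial markers Cldn5, Vwf and Flt1 also rose with age, by log2 0.52, 0.62 and 0.54 (limma adjusted p = 0.021, 0.0449 and 0.018), and Slc2a1 is itself on that marker list. Of the list's 9 genes 7 passed the filter, and Pecam1 and Pdgfrb did not. The other tested genes of the list, Kdr, Rgs5 and Slco1a4, did not pass the threshold with age on day 21. The median summed signal of the list was 2614.9 in 21PT-Y, 3048.1 in 21PT-AU and 3395.9 in 21PT-AI. The red cell markers Hbb and Alas2 rose as well in both comparisons where Slc2a1 passed, by log2 0.96 and 0.94 with age on day 21 (limma adjusted p = 5.15e-04 and 0.00495) and by 1.09 and 1.06 in impaired against young rats (adjusted p = 8.65e-04 and 0.00886). Of the 4 listed red cell markers these 2 were on the array, and their summed signal had medians of 2424.8 in 21PT-Y, 3978.1 in 21PT-AU and 4903.4 in 21PT-AI. Hbb also rose with age without training and on day 5, by log2 0.90 and 0.89 (limma adjusted p = 0.00983 and 6.75e-04), where Slc2a1 did not pass. The part of the endothelial and red cell markers in the result for Slc2a1 was not tested. In the list of hypoxia-responsive genes 1 of 13 probe sets passed. Ndrg1, a stress-responsive gene abundant in oligodendrocytes, rose by log2 0.26 ± 0.05 (SE) with age on day 5 and by 0.26 ± 0.06 on day 21 (limma adjusted p = 0.00119 and 0.00205), and its difference without training was 0.20 ± 0.06 (adjusted p = 0.129). With fluidics module in the fit the day 5 difference of Ndrg1 was 0.24 (limma adjusted p = 0.194). On day 21 the oligodendrocyte markers Mobp and Mbp rose by 0.52 and 0.46 (limma adjusted p = 0.0375 and 0.0305), 2 of 13 probe sets of that list. The other tested probe sets of Mobp and Mbp did not pass. On day 5, where Ndrg1 passed too, 0 of these 13 passed, with a median of log2 0.03 and a smallest limma adjusted p of 0.449. On day 21 the list's median summed signal was 33480 in 21PT-Y, 33937 in 21PT-AU and 36454 in 21PT-AI, and its part in the result for Ndrg1 was not tested.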

How the data were processed

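Deposited intensity values come from MAS5 (GCOS 1.1), per the submitters' processing notes, as linear signal whose trimmed mean (2% off each end) was 500.1 in all 78 arrays. Maze times (s), path lengths (cm) and array records (scan day, lot, module) are those deposited by the authors.

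After a pseudocount of 1, log2 signal entered limma 3.58.1 (R 4.3.3; lmFit, eBayes with trend) with 8 group means, giving 17 comparisons, 6 tests of differing effects and an F test. Probe sets above the 40th percentile of their array in at least 9 arrays were tested, with the 3 Hk1 controls. The fit was tested on simulated data. Correlations across the 78 arrays used 100000 permutations within groups, without regard to scan day. Those with the maze used exact permutations for 9 rats and 100000 for 10. All were two-sided with Benjamini-Hochberg adjustment. Python 3.11.15, numpy 2.4.6, pandas 2.3.3, scipy 1.17.1 and matplotlib 3.10.9 were used. The members and lists were chosen with earlier results of these data known. All member probe sets are covered, other list genes were named where they passed, with all tested genes of the short list of other glycolytic enzymes and marker genes beside a result, and the 3 closest probe sets were taken for each member. Promoter windows are from RefSeq, build GRCr8.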

Additional observations from a re-analysis of the deposited data

Results flagged for a closer look

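An array lay far from the rest of its group in 9 of 120 sets of a probe set and a group, by the gap to its nearest neighbour relative to the range of the group. Chance gives about 1 in 20 such sets. For Eno2 the array of 5T-AI replicate 4 had a signal of 3703.2, below the next lowest of 4724.2. This is the array with high microglial and low neuronal marker signal. The array of 5T-AU replicate 7 was far above the others for both Ldha (3821.1, the next being 3232.7) and Pfkp (3251.5, the next being 2744.7). It is also the rat with the shortest time to the platform in its group. Without it and the next fastest rat the relation of Ldha to that time had r = -0.45.

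High values were also those of Aldoa in NT-Y replicate 3 (11521.5) and of Hk1 in 21PT-Y replicate 6 (3151.5). Low values were those of Ldhb in NT-A replicate 4 (4783.2), of Pfkp in 21PT-AI replicate 8 (1985.4), of the Pgk1 probe set 1387361_s_at in 21PT-Y replicate 8 (2406.6) and of the 5′ control of Hk1 in 21PT-AU replicate 3 (82.1).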

How the results depend on the processing

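The count of member probe sets passing was 0 in 309 of 311 recomputed values, over 24 comparisons and tests and 13 alternative settings. Both exceptions were unimpaired against young rats on day 21. With replicate number as a block 1 probe set passed, the 5′ control of Hk1 (log2 0.73, limma adjusted p = 0.0476), and with scan day as a block 2 passed, the 5′ and middle controls. The cause was not tested. Replicate numbers were not taken to pair the animals: deviations of arrays with the same number correlated over 0.1 in 162 of 267 pairs, with a mean of 0.14 against -0.02 for other numbers and a lowest value of -0.25. The numbers follow the scan days in part, since 55 of 78 arrays were scanned on the commonest day of their number, so a replicate block is partly a scan day block. The count of all probe sets passing in that comparison was 155, and ran from 29 with fluidics module in the fit to 463 with scan day as a block. It ran from 27 to 170 for age without training (main count 81), from 54 to 379 on day 5 (259) and from 116 to 512 on day 21 (295), lowest with fluidics module in the fit. On day 5 it ran from 36 to 222 for unimpaired (142) and from 27 to 298 for impaired against young rats (210), on day 21 from 95 to 293 for impaired against young rats (182), and for the F test from 326 to 649 (426). The values of Slc2a1 and Ndrg1 were recomputed by a choice made after seeing the data and passed under all alternatives but fluidics module, where Slc2a1 in impaired rats on day 21 and Ndrg1 on day 5 did not. Signs of member differences, none of them past the threshold, changed in up to 73 of 345 values, with the module. The count of maze relations that passed was 0 with time, 1 with path length and 0 without the 2 rats farthest from the median time. By a choice made after seeing the data, path length without its 2 farthest rats gave 1, Aldoc in 21PT-AI (adjusted p = 0.0476). The F test was not run on the arrays of single comparisons. A signal near background limits the 5′ control of Hk1, which was above the 40th percentile in only 41 of 78 arrays.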

Other observations

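For Eno2 the spread within groups was uneven. The SD of log2 signal was 0.157 in NT-A, 0.150 in 21PT-AU, 0.132 in 5T-AI and 0.128 in 5T-Y, against 0.0337 in NT-Y, 0.0493 in 21PT-AI, 0.0517 in 5T-AU and 0.0701 in 21PT-Y. The unequal spread had no single direction by age or maze score, and it was noticed after the values were seen and was not tested.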
